A study of Mus musculus with 39 samples.

Results

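H3K27ac, the acetylation of lysine 27 on histone H3, was compared between the Oct4+ and the Pdgfra+ populations of mouse naive extra-embryonic endoderm (nEnd) cultures, in 3 libraries of each population. These 6 libraries were all those of the series labelled H3K27ac with Oct4 or Pdgfra, of 39 samples and 36 with a peak list, and no library of the double positive population entered the comparison. The cells of both populations came from a single embryonic stem cell line in which OCT4 carries an mCherry reporter. They had been driven to endoderm, selected for surface PDGFRA and expanded on mouse embryonic fibroblast feeders in medium with Activin A, CHIR99021 and LIF, with no further treatment. Oct4+ cells were sorted by FACS for OCT4-mCherry without PDGFRA, and Pdgfra+ cells for PDGFRA, detected with an APC-coupled antibody, without OCT4-mCherry. Oct4 and Pdgfra therefore name gates on reporter and surface protein. The libraries are numbered 1 to 3 within a population. The study describes its CUT&Tag tracks as made from 3 biological replicates, but nothing in the labels says that the libraries came from separate cultures. The p-values therefore measure the spread between these libraries only.

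H3K27ac lies on the nucleosomes of active promoters and enhancers, and is placed there by the acetyltransferases that transcription factors recruit. In CUT&Tag, an antibody against the mark directs a transposase to cut and tag the DNA around it. OCT4, encoded by Pou5f1, holds pluripotency in the epiblast and in embryonic stem cells, whereas the primitive endoderm is specified by GATA and SOX factors, responds to PDGF through PDGFRA and lays down a basement membrane rich in collagen IV and laminin.

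Sequences are shown for a microRNA cluster, for a region within Esrrb and for a region next to Sparc, which differed between the lists. The miR-290 to miR-295 cluster, whose microRNAs are the most abundant of mouse embryonic stem cells, was picked out after its values were seen. Its 9 microRNA genes lie at chr7:3218626-3220841 (GRCm38), and it was covered whole by the peak of rank 2, 4 and 1 in Oct4+ libraries 1, 2 and 3. Pdgfra+ library 3 listed a peak of rank 3436 there, and Pdgfra+ libraries 1 and 2 listed none. Mature sequences from RefSeq (GRCm38.p6) are shown because 3 of the 6 arms below share the seed AAGUGCU, by which a microRNA pairs with its targets. Capitals mark the seed, bases 2 to 8 from the 5′ end.
miR-291a-3p: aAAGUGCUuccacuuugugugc
miR-294-3p: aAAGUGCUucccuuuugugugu
miR-295-3p: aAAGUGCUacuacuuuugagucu
miR-290a-3p: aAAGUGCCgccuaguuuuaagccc
miR-291b-3p: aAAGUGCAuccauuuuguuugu
miR-293-3p: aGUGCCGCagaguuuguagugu

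Of regions over 1 kb from any TSS with a peak among the strongest in 3 of 3 lists of a population and no listed peak in the other, the 2 strongest per population were taken. In Oct4+ cells they were chr12:86496147-86515151, in an intron of Esrrb, with ranks 19, 18 and 5, and chr6:39429130-39456922, between genes and 26.0 kb from the Mkrn1 start, with ranks 3, 10 and 29. In Pdgfra+ cells they were chr17:78579037-78590708, in an intron of Vit, with ranks 165, 481 and 159, and chr11:55427344-55432241, between genes and 5.38 kb from the start of Sparc, with ranks 396, 87 and 330. Below, 300 bases of the plus strand around the signal maximum are given for the Esrrb region (chr12:86501938-86502237) and the Sparc region (chr11:55428418-55428717), because both neighbour genes described further on. Capitals mark a match to the nuclear receptor motif TCAAGGTCA, bound by ESRRB itself, in the first, and to the KLF motif GGGTGTGG, read on the minus strand, in the second.
Esrrb intron: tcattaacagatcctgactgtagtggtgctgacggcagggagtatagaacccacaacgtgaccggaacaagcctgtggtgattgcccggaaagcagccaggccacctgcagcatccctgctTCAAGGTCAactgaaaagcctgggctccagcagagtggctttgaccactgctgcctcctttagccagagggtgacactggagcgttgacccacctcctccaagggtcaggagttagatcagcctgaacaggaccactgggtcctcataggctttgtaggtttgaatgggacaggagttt
Sparc region: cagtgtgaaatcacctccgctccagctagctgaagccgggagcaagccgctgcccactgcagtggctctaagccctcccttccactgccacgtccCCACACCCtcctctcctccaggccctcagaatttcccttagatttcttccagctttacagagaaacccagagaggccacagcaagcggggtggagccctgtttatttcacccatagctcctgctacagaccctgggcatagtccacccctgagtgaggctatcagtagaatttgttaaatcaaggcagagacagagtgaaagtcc

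The 6 lists differed in length and in the signal that a listed peak had to reach. The Oct4+ lists held 38619, 65131 and 8574 peaks and the Pdgfra+ lists 4792, 7128 and 4861, and the weakest peak listed had a total signal (coverage summed over the interval) of 5460 to 6021 in Oct4+ against 8736 to 28044 in Pdgfra+ libraries. Reads per library are not given in the sources used here, so depth is unknown, and a region without a listed peak may still carry the mark. Each list was therefore cut to its 4792 strongest peaks, the length of the shortest, and also used whole. Every gene received a rank score per library, 0 where none of these peaks had the gene's start as its nearest within 100 kb, and otherwise running up to 100 for the strongest peak of the list, so that 1000 ranks are worth 20.9 points. With whole lists the score was instead scaled to the length of each list, so that equal ranks score higher in a longer list. The distal regions above had to lack a listed peak in the other population, whose lists were longer for Oct4+ cells. Of distal regions with a strongest peak in 3 of 3 lists, 610 of 874 passed for Oct4+ and 92 of 598 for Pdgfra+ cells. The ranks of the regions shown therefore do not compare the strength of distal regions between the populations. Rank scores compare genes within a library and carry no absolute level. Acetylation per cell and the share of cells that carry it cannot be told apart in such bulk libraries.

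Among equal numbers of peaks, Oct4+ peaks lay further from genes. A protein-coding TSS was covered by 36.0%, 37.5% and 41.6% of the strongest peaks in Oct4+ libraries and by 59.1%, 60.1% and 67.0% in Pdgfra+ libraries. Peaks over 10 kb from any TSS made up 50.2%, 47.8% and 44.1% against 30.1%, 28.4% and 23.7%. Neither measure overlapped between the populations, and both gave an exact two-sided permutation p of 0.10, the smallest that 3 libraries against 3 allow. The promoter share, counted from 1 kb before to 100 bp after the TSS, was 38.9% ± 3.16 (SD, n = 3) in Oct4+ and 62.4% ± 4.28 in Pdgfra+ lists (exact permutation p = 0.10). Median peak widths overlapped, at 5061, 5987 and 2747 bp in Oct4+ and 4725, 3019 and 4492 bp in Pdgfra+ libraries (exact permutation p = 0.60). The strongest peaks reached 3626, 3748 and 3771 genes in Oct4+ and 4350, 4389 and 4777 genes in Pdgfra+ libraries, a difference of -790 genes (exact permutation p = 0.10). With the whole lists it turned to 6576 more genes in Oct4+ libraries.

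**Figure D1:**
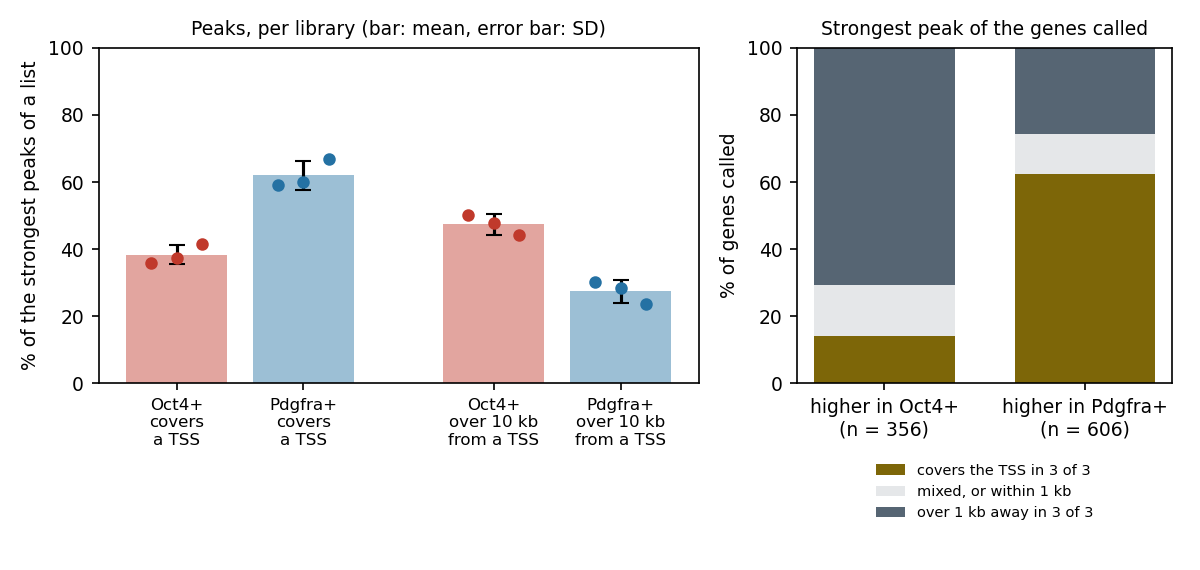
Left, percentage of the strongest peaks of each list that cover a TSS or lie over 10 kb from any TSS (points, libraries; bars, means; error bars, SD, n = 3); right, percentage of the genes called higher in each population by where their strongest peak lies in that population's 3 libraries. The Oct4+ points sit at 36.0 to 41.6% and the Pdgfra+ points at 59.1 to 67.0% for cover of a TSS, and the strongest peak covers the TSS in 3 of 3 libraries for 14.0% of the genes higher in Oct4+ and 62.4% of those higher in Pdgfra+ cells.

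Gene by gene, 7966 protein-coding genes had a strongest peak in at least 1 library, and 962 of them (12.1%) differed in rank score by limma at an adjusted p under 0.05. Of these, 356 (4.47% of the genes tested) were higher in Oct4+ and 606 (7.61%) in Pdgfra+ cells, and 1890 had an unadjusted p under 0.05. The 3 libraries of a population lay clear of the other 3 for all 962. Over all genes tested, scores did not overlap between the populations for 702 genes (8.81%) with Oct4+ above and 1482 (18.6%) with Pdgfra+ above. The median difference of Oct4+ minus Pdgfra+ was 74.1 points among the former calls and -71.6 among the latter, beside -3.2 over all genes tested. Counted without a test, 371 genes (4.66%) had a strongest peak in 3 of 3 Oct4+ and 0 of 3 Pdgfra+ lists, and 779 (9.78%) the reverse. The balance depended on list length. Equal ranks score higher in the longer Oct4+ lists when whole lists are scored, as the scale follows list length. With whole lists, limma called 1082 genes (6.34% of 17069) higher in Oct4+ and 22 (0.129%) in Pdgfra+ cells, and 1595 (9.34%) and 24 (0.141%) genes had a peak in 3 of 3 lists against 0 of 3. Of the genes named below, 20 lost their call with whole lists, among them Col4a1, Gata6, Foxa2, Foxq1, Lama1, P4ha1, Krt8, Krt18, Lif, Podxl, Tnrc18 and Tbc1d24. Ranking by maximum instead of total signal ended 18 calls, Gata6, Klf2, Tet2, Lif, Notum, Pcsk6, Ssr2, Tnrc18 and Plekhg2 among them, and no named call changed direction in either setting.

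Weaker peaks of the called genes were looked up in the whole lists, which differ in length. Of the 606 genes higher in Pdgfra+ cells, 594 had a peak of some strength in at least 1 whole Oct4+ list and 287 in all 3, while 12 had none. Of the 356 genes higher in Oct4+ cells, 154 had a peak in at least 1 whole Pdgfra+ list and 202 had none, in lists that are shorter. The position of the peak also differed. The strongest peak covered the TSS in 3 of 3 libraries for 50 (14.0%) of the genes higher in Oct4+ cells and lay over 1 kb away in 3 of 3 for 252 (70.8%). For the genes higher in Pdgfra+ cells these counts were 378 (62.4%) and 156 (25.7%). Among the 1157 genes with a strongest peak in all 6 lists, the TSS was covered for 58.5% in Oct4+ and 74.8% in Pdgfra+ libraries, so the lists as a whole differed in the same direction. Restricting each list to peaks over 1 kb from any TSS (1214 per list) gave 155 genes higher in Oct4+ and 200 in Pdgfra+ cells of 2330 tested, and restricting it to peaks that cover a TSS (3223 per list) gave 118 and 238 of 6865.

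The genes of the sort were read first. Pou5f1 had rank scores of 97.2, 96.3 and 97.3 in Oct4+ libraries 1, 2 and 3 and 0, 0 and 60.3 in the Pdgfra+ libraries. All these peaks covered its TSS, and only Pdgfra+ library 3 listed one on the Pdgfra+ side. The difference was 76.9 ± 17.9 points (SE, adjusted p = 0.0327), rising to 97.0 without Pdgfra+ library 3 and missing the threshold without any 1 of the other 5 (adjusted p 0.0882 to 0.124). Pdgfra itself scored 0 in all Oct4+ libraries and 58.5, 62.1 and 8.6 in the Pdgfra+ libraries, always with a peak over its TSS. The populations did not overlap, but the low value of Pdgfra+ library 3 left the difference at -43.1 ± 17.1 points (adjusted p = 0.181), and without that library it was -60.3 (adjusted p = 0.0250). Pdgfra+ library 3 also had strongest peaks at some pluripotency genes where the other Pdgfra+ libraries had none. It scored 94.0 at Lin28a, against 0, 0 and 7.3 in the Oct4+ libraries, and 44.9 at Tfcp2l1, against 44.9, 36.1 and 32.0. At Dppa5a, Klf2, Sox2, Tdgf1 and Fgf4 it had no strongest peak.

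The marker genes followed the gates. The summed score of 4 pluripotency markers (Pou5f1, Nanog, Sox2, Esrrb) was 228.0, 186.6 and 257.4 in Oct4+ and 56.2, 0.0 and 136.0 in Pdgfra+ libraries. Of the Pdgfra+ sums, 56.2 in library 1 and 75.7 in library 3 came from peaks 33.0 and 31.0 kb downstream of Nanog. These peaks lay within Slc2a3, and with the starts of all transcripts Nanog scored 0 in each Pdgfra+ library. Esrrb added 0 in every library, as its Oct4+ peak lay beyond the 100 kb limit. The 6 endoderm markers (Pdgfra, Gata6, Gata4, Sox17, Sox7, Foxa2) summed to 0.0 in each Oct4+ and to 466.9, 481.5 and 417.7 in the Pdgfra+ libraries, although 4, 6 and 0 of them had a weaker peak in the whole Oct4+ lists. Of 8 fibroblast markers, for the feeders, only Col3a1 had a strongest peak, in Oct4+ library 1 (65.3). In the whole lists 4, 7 and 1 of the 8 had a peak in Oct4+ and 0 in each Pdgfra+ library. Of all 21938 protein-coding genes, the whole lists reached 13158, 16076 and 5786 in Oct4+ and 4350, 6107 and 4834 in Pdgfra+ libraries. The part of feeder cells in the Oct4+ results was not tested. The 4 trophectoderm markers summed to 39.2, 0.0 and 0.0 in Oct4+ and 73.5, 34.3 and 1.3 in Pdgfra+ libraries.

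Among 25 naive and core pluripotency factors, 4 rose in Oct4+ cells (4.47% of all genes tested did), none in Pdgfra+ cells, 16 others were tested and not called, and 5 had no strongest peak. The median difference of the 20 tested was 25.2 points, beside -3.2 over all genes. Besides Pou5f1 the 4 were Dppa5a, Klf2 and Tet2. Dppa5a, which encodes a small RNA-binding protein of pluripotent cells, had peaks over its TSS that scored 98.7, 97.6 and 99.5, with 0 in each Pdgfra+ library (adjusted p = 0.00319). Klf2, a Kruppel-like factor of the naive network, scored 87.0, 99.8 and 99.2 against 12.3, 0 and 0, a difference of 91.2 ± 11.4 points. Tet2, an enzyme that oxidises 5-methylcytosine, scored 94.7, 90.3 and 96.7 against 0, 0 and 15.9, from peaks 9.95 to 16.9 kb inside the gene. The Klf4 locus did not separate the populations, at 99.1, 97.0 and 98.2 against 94.0, 97.7 and 94.0. The same held for L1td1, at 36.6, 77.8 and 80.4 against 80.8, 61.0 and 87.5. Tbx3, a T-box factor shared by naive cells and primitive endoderm, had its higher values in Pdgfra+ cells (72.3, 22.0 and 18.1 against 92.6, 88.8 and 97.2, adjusted p = 0.0672), as did Mycn (69.9, 0.7 and 0 against 86.1, 77.8 and 90.6, adjusted p = 0.110).

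At Nanog, Sox2 and Esrrb the score turned on the distance of the peak. At Nanog, the homeobox factor, scores were 98.4, 90.3 and 79.2 in Oct4+ and 56.2, 0 and 75.7 in Pdgfra+ libraries (45.3 ± 19.3, adjusted p = 0.213). The Oct4+ peaks covered the TSS in libraries 1 and 2 and lay 4.20 kb upstream in library 3. The Pdgfra+ peaks lay 33.0 and 31.0 kb downstream, within the Slc2a3 gene. With the starts of all transcripts the Oct4+ scores stayed the same and Nanog scored 0 in each Pdgfra+ library (adjusted p = 0.00330). With peaks kept to 20 kb of a gene start the Nanog difference was 89.3 points (adjusted p = 0.00447). At Sox2, the partner of OCT4, a peak 104 to 105 kb downstream, at the place of its known distal control region and beyond the 100 kb limit, was listed in 3 of 3 Oct4+ lists. Without the limit Sox2 scored 96.6, 95.8 and 99.6 against 0 in each Pdgfra+ library (adjusted p = 0.00303), and with it 32.4, 0 and 80.9 (adjusted p = 0.328). The intronic Esrrb region whose sequence is given above lies 135 kb from the annotated gene start, so Esrrb had a score of 0 in every library with the limit. Without it, or with the starts of all its transcripts, Esrrb scored 99.6, 99.6 and 99.9 against 0 in each Pdgfra+ library (adjusted p = 0.00303 and 0.00330). Tfcp2l1, another naive factor, reached 44.9, 36.1 and 32.0 against 0, 0 and 44.9 (adjusted p = 0.433). Dppa3 had no strongest peak in any list. Its peaks in the whole lists were in Oct4+ libraries alone, at ranks 11085, 12922 and 8424 in libraries 1, 2 and 3. Scaled to the length of each whole list, these ranks scored 71.3, 80.2 and 1.8. Formative and primed pluripotency genes were mostly without a strongest peak (13 of 18), and none was called.

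The 10 largest differences towards Oct4+ cells ran from 98.5 to 99.7 points, each with a score of 0 in all 3 Pdgfra+ libraries and no peak in the whole Pdgfra+ lists. Phc1, a subunit of the Polycomb repressive complex, had a peak over its TSS that scored 98.7, 99.1 and 98.6. Pdk1, a kinase that restrains pyruvate dehydrogenase, scored 99.6, 99.2 and 97.0. It was the only call among 13 tested genes of the 18-gene glycolysis list, beside 12.1% called over all genes tested. Ssr2, of the translocon-associated complex, scored 97.9, 99.3 and 99.7. Sp110 (99.5, 99.8 and 99.9), C130026I21Rik (98.9, 99.0 and 99.3) and Gm10553 (98.7, 97.7 and 99.0) lie near each other on chromosome 1 among repeated gene copies, so reads there may belong to any of them. AC124108.1, Cd244a, Tmem17 and Dppa5a complete the 10. Cd244a encodes a receptor of natural killer cells. At Tmem17 the peak was 85.9 to 94.6 kb downstream of the gene, and the nearest start is then a label for the region rather than its target.

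The endoderm transcription factors showed the opposite pattern. Of 15, 7 rose in Pdgfra+ cells (7.61% of all genes tested did), 0 rose in Oct4+ cells, 3 were tested and not called, and 5, Foxa1 and Hnf4a among them, had no strongest peak. The median difference of the 10 tested was -74.0 points. Gata4, a zinc finger factor of primitive endoderm, scored 98.1, 99.8 and 99.0, with 0 in each Oct4+ library (-98.9 ± 10.6 points, adjusted p = 0.00319). Its strongest peak stood 65.6 to 65.7 kb upstream of the gene in all 3. Gata6, the earliest factor of the lineage, scored 86.6, 96.0 and 91.3 from peaks over its TSS, with 0 in each Oct4+ library. Foxa2 scored 77.1, 80.0 and 76.8, Foxq1 72.9, 75.1 and 92.3, Sox7 76.9, 70.7 and 79.7, Sox17 69.8, 73.1 and 62.3, and Foxa3 87.0, 39.8 and 89.8, all against 0 in each Oct4+ library (adjusted p 0.00373 to 0.0266). For Sox17 the strongest peak was at 3 places, 2.11 kb downstream, 38.6 kb upstream and 21.4 kb downstream of the TSS, in libraries 1, 2 and 3.

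**Figure D2:**
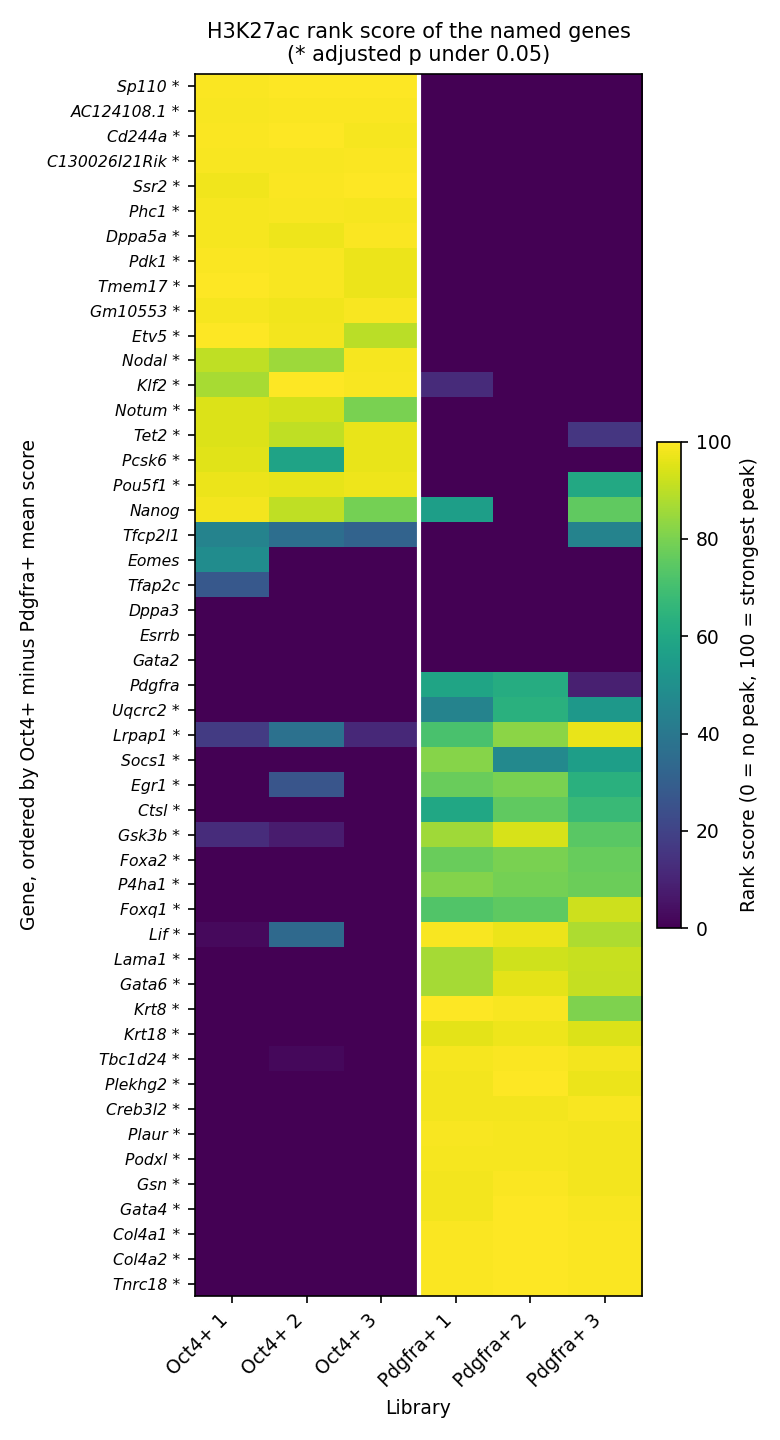
Rank score of H3K27ac (colour, 0 for no strongest peak to 100 for the strongest peak of the list) of the named genes (rows, ordered by Oct4+ minus Pdgfra+ mean score) in the 3 Oct4+ and 3 Pdgfra+ libraries (columns). Sp110 to Gm10553 are above 96 in every Oct4+ library and at 0 in every Pdgfra+ library, Pdgfra+ library 3 alone among the Pdgfra+ libraries has a value at Pou5f1 (60.3), and genes marked * pass an adjusted p of 0.05.

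Of 18 genes that encode components of the basement membrane and their processing enzymes, 7 rose in Pdgfra+ cells (7.61% of all genes tested did), none in Oct4+ cells, 8 were tested and not called, and 3 had no strongest peak. The median difference was -35.7 points over the 15 tested. Col4a1 and Col4a2, the main chains of collagen IV, are transcribed away from each other from a shared promoter, so a single peak gave both their scores. It was chr8:11303168-11318077 in Pdgfra+ library 1 and scored 99.5, 99.7 and 99.6, with 0 in each Oct4+ library (-99.6 ± 10.6 points, adjusted p = 0.00319). Lama1, a laminin chain, scored 86.7, 92.7 and 91.7 and Lamb1 87.8, 42.8 and 96.2, all against 0. Serpinh1, the collagen chaperone, had 96.6, 98.0 and 96.3 against 0, 53.1 and 0. Sparc, which binds collagen and whose neighbouring sequence is given above, had 92.0, 98.2 and 97.7 against 0, 11.2 and 41.0. P4ha1, a collagen prolyl hydroxylase, scored 81.6, 79.0 and 77.5 against 0. Other components did not follow. Lama5 was near the top in both populations, at 98.4, 99.3 and 97.2 against 97.9, 89.0 and 99.0. Lamc1 had values of 48.4, 47.1 and 56.8 against 25.5, 0 and 19.7 (adjusted p = 0.118), and Col18a1 of 72.3, 96.9 and 3.6 against 0 (adjusted p = 0.195).

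Among the remaining genes with the largest differences towards Pdgfra+ cells, Gsn, an actin-severing protein, scored 98.4, 99.4 and 98.3. Podxl, a surface sialomucin of epithelia, scored 98.6, 98.7 and 98.4 from peaks 46.1 to 51.3 kb upstream. Plaur, the urokinase receptor, scored 98.9, 98.5 and 98.2, and Creb3l2, a membrane-bound regulator of secretory genes, 98.1, 98.3 and 99.0. All had 0 in each Oct4+ library, as did Tnrc18 (99.4, 99.8 and 99.6) and Plekhg2 (98.4, 99.7 and 96.9). Tbc1d24 scored 98.6, 99.6 and 98.4 against 0, 2.0 and 0. The keratins Krt18 (96.0, 97.4 and 94.8) and Krt8 (99.7, 99.0 and 80.6) were at 0 in Oct4+ libraries. They were the only calls among 12 tested genes of an 18-gene trophectoderm list, beside 12.1% called over all genes tested. Both are keratins of simple epithelia in general. The trophectoderm factors Eomes (48.6, 0 and 0) and Tfap2c (27.5, 0 and 0) had a strongest peak in Oct4+ library 1 only, and Gata2 had none. Cdx2 had one in the Pdgfra+ libraries only (35.4, 23.7 and 1.3, adjusted p = 0.341). Tead4 scored 88.1, 86.9 and 95.9 in Pdgfra+ against 82.7, 35.1 and 5.1 in Oct4+ libraries (adjusted p = 0.167). Of the 12 tested, 8 had the higher mean in Pdgfra+ and 4 in Oct4+ cells, with a median difference of -18.2 points.

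Each signalling pathway list held 0 to 3 calls among 11 to 15 genes tested, beside 12.1% called over all genes tested. Nodal, a TGF-beta ligand of the epiblast, had peaks over its TSS that scored 90.5, 85.2 and 98.8 in Oct4+ libraries, with 0 in each Pdgfra+ library (91.5 ± 10.9 points, adjusted p = 0.00319). Pcsk6, a convertase that cleaves the Nodal precursor, scored 95.6, 58.0 and 96.7 against 0 (adjusted p = 0.00884). Of 14 genes of the Nodal and Activin list 2 were higher in Oct4+ and 1 in Pdgfra+ cells, with a median of -1.4 points over the 12 tested. Pcsk6 missed the threshold without Pdgfra+ library 1 (adjusted p = 0.0537).

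Lif, the cytokine that both populations received in the medium, had its own strongest peak about 6 kb inside the gene in Pdgfra+ libraries, scoring 99.2, 97.0 and 87.7 against 2.6, 34.3 and 0 in Oct4+ libraries (-82.3 ± 13.4 points, adjusted p = 0.00770). Socs1, an inhibitor of JAK kinases, scored 81.8, 47.1 and 56.2 against 0 (adjusted p = 0.0228). These were the 2 called of 13 genes tested on the 21-gene LIF and JAK/STAT list, a share near the 12.1% of all genes tested. The receptor gene Lifr had overlapping values of 93.0, 28.3 and 98.9 against 71.4, 78.9 and 81.2. Without Pdgfra+ library 1 the Lif difference was -80.0 points (adjusted p = 0.0525), and Socs1 missed the threshold without any 1 library except Pdgfra+ library 2 (0.0506 to 0.0735).

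Among receptor kinases, FGF and ERK targets, Etv5, an ETS factor induced by FGF, scored 99.8, 98.1 and 89.7 against 0 (95.9 ± 10.8 points). Egr1, an immediate early target of ERK, scored 0, 26.3 and 0 against 77.2, 79.9 and 63.4 (adjusted p = 0.0163), and missed the threshold without Oct4+ library 1 or Pdgfra+ library 1 or 2 (adjusted p 0.0619 to 0.0788). The other 18 of the 20 genes were not called, and Fgfr2 was high in both, at 83.8, 94.8 and 98.2 against 69.0, 61.4 and 84.5. In the Wnt list, Notum, an enzyme that inactivates Wnt proteins, scored 94.9, 93.3 and 79.8 against 0, and Gsk3b, the kinase that CHIR99021 inhibits, 12.7, 7.8 and 0 against 85.7, 93.9 and 74.6 (adjusted p = 0.00518). None of 17 BMP pathway genes was called, although Bmp7 had a strongest peak in 3 of 3 Oct4+ lists only (50.4, 31.0 and 71.0, adjusted p = 0.0617).

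Of the remaining lists, that of 22 endocytic and secreted endoderm proteins had 9 genes tested and 13 without a strongest peak. All 9 had the higher mean in Pdgfra+ cells, with a median difference of -20.1 points, beside -3.2 over all genes tested. Of the 9, 2 were called, both higher in Pdgfra+ cells (7.61% of all genes tested were). These were the lysosomal protease Ctsl (59.6, 75.5 and 67.7 against 0) and Lrpap1, a chaperone of LRP receptors (71.2, 82.8 and 96.8 against 17.5, 37.3 and 11.4, adjusted p = 0.0227). Uqcrc2, a subunit of respiratory complex III, scored 44.9, 63.6 and 53.3 against 0 (adjusted p = 0.0253). It was the only call among 9 tested of 18 nuclear genes of oxidative phosphorylation, beside 12.1% called over all genes tested. Lrpap1 missed the threshold without Oct4+ library 1 or any 1 Pdgfra+ library (adjusted p 0.0578 to 0.0807), and Uqcrc2 without Oct4+ library 1 or Pdgfra+ library 1 or 2 (0.0510 to 0.0722). No cytosolic ribosomal protein gene was called, of 18 listed and 17 tested. Of 17 feeder genes 3 were tested and none called.

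**Figure D3:**
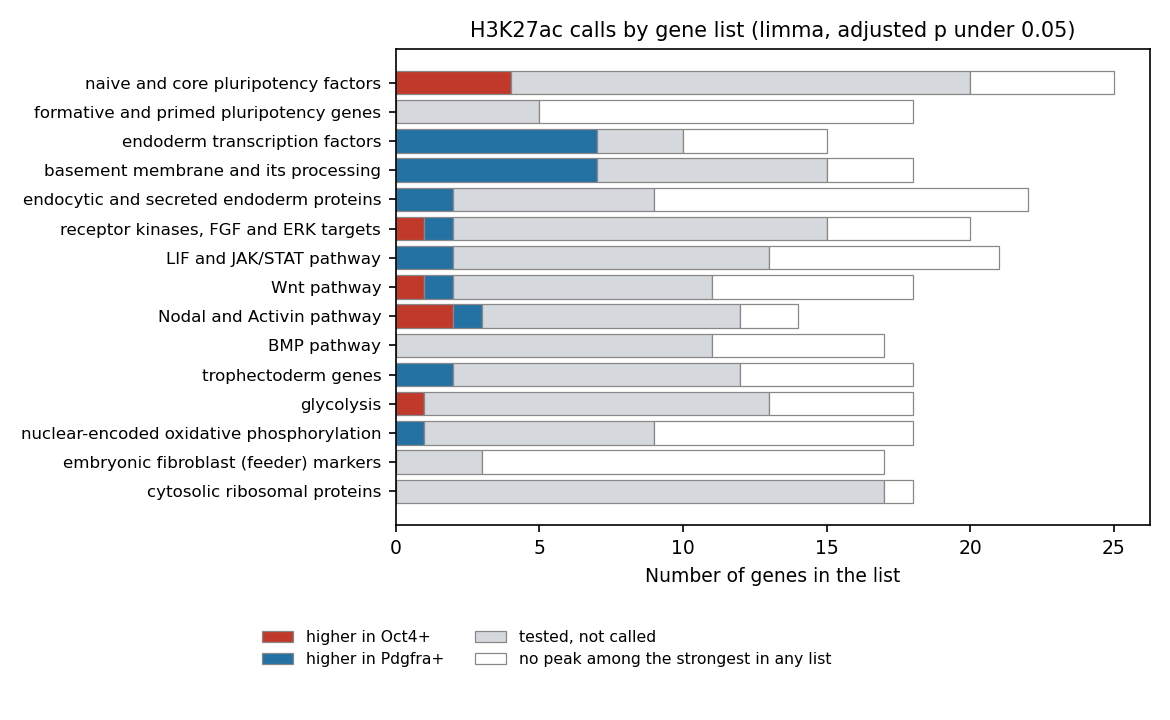
Number of genes of each list (horizontal axis) called higher in Oct4+ or in Pdgfra+ cells by limma, tested without a call, or without a strongest peak in any library. The naive list holds 4 calls towards Oct4+, and the endoderm factor and basement membrane lists hold 7 each towards Pdgfra+ cells.

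Sequence around the distal peaks was compared in windows of 200 bp at the signal maximum of the 1214 strongest peaks per list that lay over 1 kb from any TSS. Each of 12 motifs was searched as fixed letters on both strands, and its share was set beside that in the 129105 windows of all listed peaks. The GATA letters GATAAG were in 5.93%, 4.94% and 5.11% of Oct4+ windows and in 16.3%, 15.1% and 11.1% of Pdgfra+ windows, beside 5.91% of all windows. Each Pdgfra+ library was thus above all Oct4+ libraries. Most of the windows behind the share over all peaks come from the longer Oct4+ lists. The AP-1 letters TGANTCA, read by JUN and FOS dimers, were in 6.75%, 6.92% and 8.81% against 18%, 17.6% and 12.3% (6.45% of all windows). In the other direction, the ESRRB letters TCAAGGTCA were in 1.65%, 1.40% and 2.31% of Oct4+ and 0.412%, 0.329% and 0.247% of Pdgfra+ windows (0.613%). These 3 motifs, and with smaller gaps SOX (AACAAAG, 6.07% ± 0.252 against 7.77% ± 0.579) and TEAD (CATTCCA, 5.13% ± 0.503 against 6.26% ± 0.459), did not overlap between the populations. Each gave an exact permutation p of 0.10, the smallest possible, and 0.20 after adjustment over the 12. Ranked by maximum signal, SOX and TEAD overlapped (exact permutation p = 0.20 and 0.50).

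The octamer ATGCAAAT that OCT4 reads was no more frequent in Oct4+ windows, at 1.40%, 1.24% and 0.659% against 0.824%, 1.15% and 1.15% (exact permutation p = 0.80). The ranges also overlapped for KLF (GGGTGTGG), FOXA (TGTTTAC), STAT (TTCCNGGAA), TFAP2 (GCCNNNGGC) and HNF4 (CAAAGTCCA). With all distal peaks, KLF, TFAP2 and HNF4 no longer overlapped and were higher in Pdgfra+ libraries (differences of -1.62, -2.56 and -0.447 points, each with an exact permutation p of 0.10). The same held for KLF with 400 bp windows (-1.10) and for HNF4 by maximum signal (-0.412). A match says only that the letters are in the window, and the octamer shares rest on few windows per library. From its enhancer sets the study reports an OCT4-SOX2-TCF-NANOG motif for Oct4+ cells alone, which was not searched here.

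**Figure D4:**
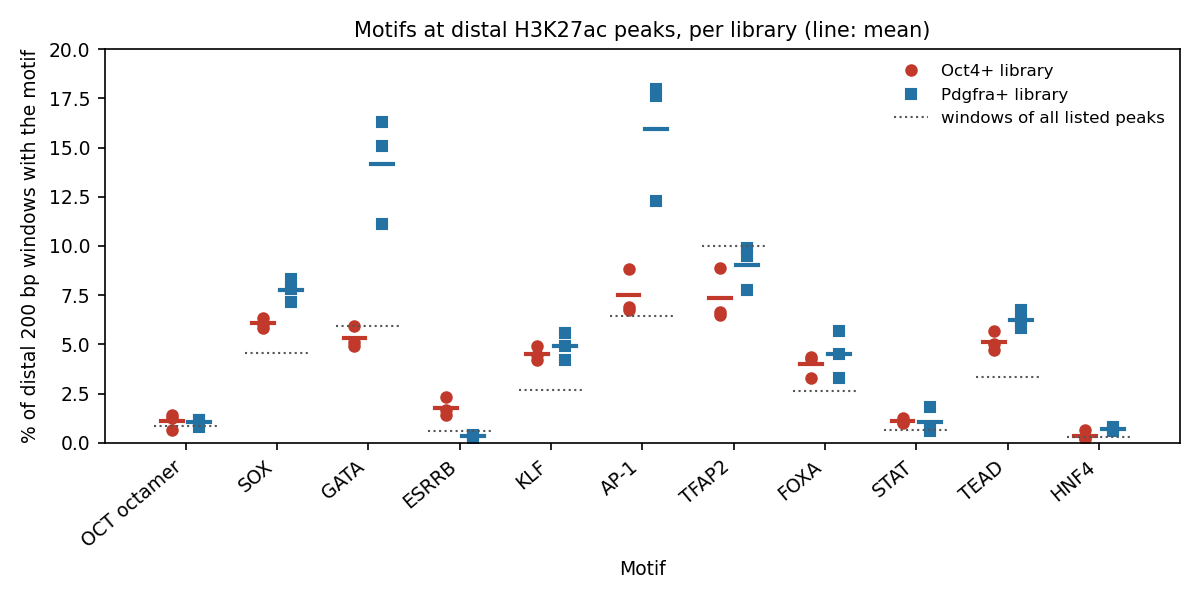
Percentage of distal 200 bp windows that hold each motif, per library (points; lines, means; 3 libraries per population), with the share in windows of all listed peaks dotted. GATA and AP-1 stand highest in Pdgfra+ libraries, at 11.1 to 16.3% and 12.3 to 18%, while the points for the OCT octamer overlap.

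The other marks of the same populations, from libraries that took no part in the calls, were read within 5 kb of the gene starts. H3K27me3, the mark of Polycomb repression, was rarer in Pdgfra+ libraries at the genes higher in Pdgfra+ cells than at all genes. The share of these genes with a peak, minus that of all genes, was -2.96, -5.30 and -11.8 percentage points in Pdgfra+ and 0.142, 1.32 and 1.59 points in Oct4+ libraries (difference 7.69, exact permutation p = 0.10). At the genes higher in Oct4+ cells the excess was -1.58, -2.37 and -6.64 points in Oct4+ and 0.0797, 2.88 and 4.29 points in Pdgfra+ libraries (difference -5.95, exact permutation p = 0.10). Neither pair of groups overlapped, and both had an adjusted p of 0.20 over 6 tests. Here and below, called genes were drawn from the 7966 with a strongest H3K27ac peak, whereas all genes are the 21938 protein-coding genes.

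Gene by gene, H3K27me3 was listed in 3 of 3 Oct4+ and 0 of 3 Pdgfra+ libraries at 25 of the 606 genes higher in Pdgfra+ cells (4.13%), beside 228 of all 21938 genes (1.04%), and at 2 of the 356 higher in Oct4+ cells (0.562%). Among them were Gata6, Sox17, Sox7, Foxq1, Col4a1, Col4a2, Lamb1, Gsn and Podxl. In all, 5 of the 15 endoderm factors (33.3%) and 4 of the 18 basement membrane genes (22.2%) had it. The reverse, in 3 of 3 Pdgfra+ and 0 of 3 Oct4+ libraries, held for 27 of all genes (0.123%) and for 3 of the 356 (0.843%), Notum among them. Pou5f1, Nanog and Nodal had no H3K27me3 peak in either population. Dppa3, without a strong H3K27ac peak, had one in 3 of 3 Oct4+ libraries.

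H3K4me1, found at enhancers and around promoters, was in excess at the genes higher in Oct4+ cells in Oct4+ libraries, by 10.1, 27.2 and 20 points, against -0.287, -0.242 and 1.49 points in Pdgfra+ libraries (difference 18.8, exact permutation p = 0.10, adjusted 0.20). The H3K4me1 lists held 4127, 16057 and 7443 peaks in Oct4+ and 1723, 1074 and 10620 in Pdgfra+ libraries. With the 1074 strongest peaks of each list, the excess was 3.89, 8.73 and 7.57 against 0.0615, -0.242 and -0.413 points (exact permutation p = 0.10). At the genes higher in Pdgfra+ cells the excess with whole lists was 7.10, 19.4 and 10.4 against 9.86, 5.85 and 35.8 points, and the ranges overlapped (exact permutation p = 0.90). With the 1074 strongest H3K4me1 peaks of each list they no longer did, at 1.97, 1.68 and 1.88 against 7.35, 5.85 and 10.3 points (exact permutation p = 0.10). For H3K9me3, a mark of heterochromatin, the populations overlapped at both groups of genes (exact permutation p = 0.70 and 0.30). Within 20 kb they did not, at 13.3, 12.5 and 7.88 points in Oct4+ against 5.11, 3.06 and 5.84 in Pdgfra+ libraries for the genes higher in Oct4+ cells, and at -1.96, -2.02 and -0.267 against 1.39, 0.917 and 3.27 for those higher in Pdgfra+ cells (exact permutation p = 0.10 for both).

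**Figure D5:**
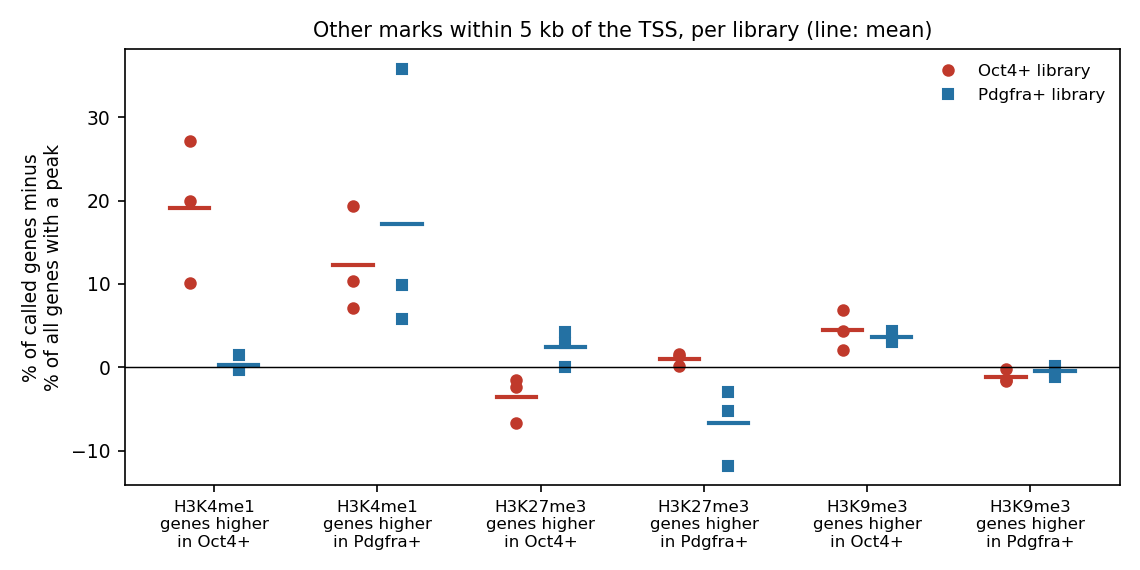
Percentage of called genes with a peak of another mark within 5 kb of the TSS, minus that of all protein-coding genes (vertical axis, percentage points), per library (points; lines, means; 3 libraries per population). H3K4me1 at genes higher in Oct4+ cells lies at 10.1 to 27.2 points in Oct4+ libraries, and H3K27me3 at genes higher in Pdgfra+ cells at -11.8 to -2.96 points in Pdgfra+ libraries.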

How the data were processed

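CUT&Tag libraries were made from sorted cells and paired-end reads were aligned to mm10. Per the labels and methods, the authors called peaks for each library against IgG with SEACR in stringent mode. Each deposited line gives an interval with its total and maximum signal (fragment coverage), in whole numbers not scaled to depth. The submitters' processing notes name bcl2fastq 2.19.1, Bowtie2, SAMtools 1.12, bedtools 2.26.0, deepTools and SEACR. Other versions and the SEACR normalization setting are not given in the sources used here. Reads behind a peak in multi-copy sequence cannot be assigned.

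The 6 lists were ranked by total signal, cut to 4792 peaks and joined to the nearest start of 21938 protein-coding genes (GENCODE vM21, GRCm38) within 100 kb. At that rank the total signal was 7375 to 18002 in Oct4+ and 11078 to 28307 in Pdgfra+ libraries. Rank scores were tested with limma 3.58.1 (R 4.3.3; trend and robust empirical Bayes, which sets the SE of genes without spread), with Benjamini-Hochberg adjustment over 7966 genes. Single values were tested by exact two-sided permutation of the libraries between the populations (20 ways). The code was tested on simulated scores, and overlaps were checked against bedtools 2.31.1. No replicate pair shared an interval with equal signal. Same-numbered libraries did not deviate together (correlations 0.016, -0.038 and 0.027), so the fit has no block.

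Named were Pou5f1 and Pdgfra, the loci that the study discusses for these marks, the 10 largest differences per direction among calls without overlap, up to 4 called members per list and 2 distal regions per population. Marker genes, other list members, Dppa3 in whole lists, Sox2 and the miR-290 cluster were added after their values were seen. The members and lists were chosen with earlier results of these data known. Alternatives were whole or shorter lists, maximum signal, other distances and gene starts, a common minimum of signal, a replicate block and leaving out each library. Settings with no distance limit, distal peaks or TSS-covering peaks were chosen after seeing the data. The IgG and double positive samples were not used here, and some list members and motifs are not reported here.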

Additional observations from a re-analysis of the deposited data

How the results depend on the processing

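None of the 962 genes called by limma was called in the opposite direction under any alternative, but their number moved. Genes higher in Oct4+ and in Pdgfra+ cells numbered 1082 and 22 with whole lists (98.0% towards Oct4+, against 37.0% in the main comparison, with the median of all genes moving from -3.16 to 28.02 points), 211 and 357 with lists of 2396 peaks, 160 and 221 when ranked by maximum signal, 155 and 200 with distal peaks, and 118 and 238 with peaks that cover a TSS. Within 20 kb, 193 were higher in Oct4+ and 543 in Pdgfra+ cells (26.2% towards Oct4+). Whole lists kept 354 of the 356 Oct4+ calls and 22 of the 606 Pdgfra+ calls, and 67 of the 606 had the opposite sign there. Leaving out 1 library, so that fewer libraries were fitted, gave 199 to 382 and 373 to 591. The counts were 221 higher in Oct4+ cells without Oct4+ library 1, 228 without Pdgfra+ library 2, and 199 and 373 without Pdgfra+ library 1. Genes with a peak in 3 of 3 against 0 of 3 lists numbered 1595 and 24 with whole lists, 17 and 166 above a common minimum of total signal, 176 and 268 with distal peaks, 211 and 359 with TSS-covering peaks, 227 for Oct4+ within 20 kb and 502 for Pdgfra+ with 2396 peaks. Without 1 library they were 393 to 563 and 883 to 1012, with 563 without Oct4+ library 2 and 562 without Oct4+ library 3. Scores of whole lists are scaled to the length of each list, so equal ranks score higher in the longer Oct4+ lists. The cause of the changes in number was not tested.

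With the replicate block the counts were 389 and 682, sharing 330 and 548 genes with the fit without it, and the numbers do not pair the libraries. The difference in genes with a peak turned to 6576 with whole lists and ran from -868 to -654 without 1 library. It was -387 with 2396 peaks, -437 by maximum signal and -1126 within 20 kb. That in promoter share was -39.2 points with whole lists and -11.7 by maximum signal, and ran from -25.3 to -21.1 without 1 library.

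Of the motif gaps, those of the OCT octamer, FOXA and STAT changed sign. FOXA was at 0.329 points by maximum signal, and STAT at -0.192 with 400 bp windows, -0.258 with all distal peaks and -0.137 by maximum signal. Without 1 library the OCT octamer ran from -0.0961 to 0.275, FOXA from -1.13 to 0.0686 and STAT from -0.220 to 0.398. Likewise H3K4me1 at genes higher in Pdgfra+ cells ran from -10.5 to 4.46, positive without Pdgfra+ library 3, and H3K9me3 at genes higher in Oct4+ cells from -0.425 to 1.95. GATA (-10.4 to -7.77), AP-1 (-10.3 to -7.45) and ESRRB (1.19 to 1.65) kept their sign without 1 library, and ESRRB fell to 0.628 with all distal peaks. With equal numbers of peaks the differences of H3K4me1 and H3K27me3 at genes higher in Oct4+ cells were 6.93 and -2.12 points, and that of H3K27me3 at genes higher in Pdgfra+ cells 3.12. Of 584 values of 47 named genes under alternatives, 481 kept direction and side of the threshold, 100 lost and 2 gained significance, and Tfcp2l1 turned to -16.7 points with distal peaks. Depth is unknown, so a missing peak sets no upper limit on the mark.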
